A study of Mus musculus with 3 samples.

Results

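In the otocyst, the epithelial vesicle that forms the inner ear, 863 peaks of the chromatin remodeler CHD7 lay at the ends of protein-coding genes without a base in common with any peak of the transcription factor SOX2. They were 14.3% of the 6041 CHD7 peaks at gene ends (exact 95% interval 13.4 to 15.2). The other 5178 overlapped a SOX2 peak. A gene end was the space within 1 kb of either outer border of a protein-coding gene in the RefSeq table of mouse build GRCm38.p6, also called mm10. Chromosomes 1 to 19 and X were used, which held 32662 of all 33035 CHD7 peaks. Over all CHD7 peaks of these chromosomes, 11300 had no base in common with SOX2, a share of 34.6%. The members were thus chosen by their peak overlap and position, and those measures are given here as a description.

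The tissue was 34 wild-type otocysts of stage E10.5, whose pooled cells were split into 3 samples. CUT&Tag, in which an antibody tethers a transposase to chromatin, was done with an antibody against CHD7, with one against SOX2, or with no primary antibody. The last sample is not analysed here. There was 1 library per antibody from 1 pool, so no difference below has a replicate check, and intervals cover counting error only. Below, "with SOX2" and "without SOX2" refer to listed peaks only, and a listed peak is not proof that the protein bound there. The lists hold no RNA, so the identity of the dissected cells could not be checked against marker expression.

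CHD7 slides and repositions nucleosomes with energy from ATP, and loss of 1 copy of its gene causes CHARGE syndrome, which includes malformed semicircular canals. SOX2 is an HMG-box factor that bends DNA and is needed for the sensory patches of the inner ear and their neurons. Start regions of active genes are often rich in CpG and open, and many proteins are recovered there, while genes of developmental transcription factors often lie in broad CpG-rich domains.

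The 160 bases before the RefSeq start of 7 member genes are printed below, because they stand for the kinds of gene found: a Hox gene, other developmental transcription factors, a chromatin regulator, a histone pair, a ribosomal protein and a respiratory chain subunit. Each stretch lay wholly inside its CHD7 peak and is written 5′ to 3′ in the direction of the gene, from RefSeq on GRCm38.p6. Capitals mark ACAAT and ACAAAG, short sequences of the kind that SOX proteins bind, CCAAT, the NF-Y box, and GGGCGG, the GC box, on either strand; adjoining GGGCGG matches overlap. The stretches are Hoxd13 at chr2:74668065-74668224 on the plus strand, Cdx2 at chr5:147307250-147307409 on the minus strand, Twist1 at chr12:33957511-33957670 on the plus strand, Suz12 at chr11:79992946-79993105 on the plus strand, H2ac23 at chr13:21810207-21810366 on the plus strand, Rps9 at chr7:3703881-3704040 on the plus strand and Ndufb10 at chr17:24724424-24724583 on the minus strand.
Hoxd13: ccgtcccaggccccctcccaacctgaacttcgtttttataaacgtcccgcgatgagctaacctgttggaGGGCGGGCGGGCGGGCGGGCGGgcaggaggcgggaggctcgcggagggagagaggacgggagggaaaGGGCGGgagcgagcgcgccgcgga
Cdx2: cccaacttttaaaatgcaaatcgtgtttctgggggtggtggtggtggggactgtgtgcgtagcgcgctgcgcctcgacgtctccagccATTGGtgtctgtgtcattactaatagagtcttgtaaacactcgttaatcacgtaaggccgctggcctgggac
Twist1: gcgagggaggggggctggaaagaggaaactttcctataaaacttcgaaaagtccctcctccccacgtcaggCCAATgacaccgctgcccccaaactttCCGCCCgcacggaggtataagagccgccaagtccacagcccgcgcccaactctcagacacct
Suz12: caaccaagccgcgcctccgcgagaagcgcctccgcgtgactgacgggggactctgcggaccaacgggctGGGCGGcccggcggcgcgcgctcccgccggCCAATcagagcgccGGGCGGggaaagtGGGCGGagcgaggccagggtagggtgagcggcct
H2ac23: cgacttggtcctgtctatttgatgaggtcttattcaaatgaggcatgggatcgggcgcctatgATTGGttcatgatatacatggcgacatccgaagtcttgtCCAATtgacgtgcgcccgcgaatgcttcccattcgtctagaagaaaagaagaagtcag
Rps9: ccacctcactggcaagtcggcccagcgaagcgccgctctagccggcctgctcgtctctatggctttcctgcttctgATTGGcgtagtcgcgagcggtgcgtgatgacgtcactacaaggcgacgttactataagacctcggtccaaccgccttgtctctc
Ndufb10: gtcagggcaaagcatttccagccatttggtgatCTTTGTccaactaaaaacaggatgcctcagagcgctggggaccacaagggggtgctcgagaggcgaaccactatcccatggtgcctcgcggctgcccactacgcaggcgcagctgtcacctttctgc
ACAAT did not occur in any of the 7 stretches, and ACAAAG occurred 1 time, in Ndufb10. Hoxd13 held 6 GGGCGG matches, 5 of them in the overlapping run, and Suz12 held 3. H2ac23 held 2 CCAAT boxes, and Cdx2, Twist1, Suz12 and Rps9 held 1 each. The absence of ACAAT holds only for these short stretches. The longer promoter windows described below held ACAAT in Twist1 and Rps9, and ACAAAG in Rps9 as well as Ndufb10. Over all such windows, ACAAT occurred in 17.6% of those inside members and 15.7% of those inside peaks with SOX2. All of these are matches of letters and not measured binding sites.

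The members marked 972 of 21631 protein-coding genes, or 4.49%. Any CHD7 peak at an end was found at 6734 genes, or 31.1%, so 14.4% of the CHD7-marked genes had a peak without SOX2. Neither Chd7 nor Sox2 was among them. Of the 972 genes, 505 had no SOX2 peak within 1 kb of either end, which is 2.33% of all coding genes. The other 467 had a SOX2 peak elsewhere at an end. Of the 505, 319 had a SOX2 peak inside the gene, leaving 186 genes, 19.1% of the 972, with none in the gene or the 1 kb beyond it. A further CHD7 peak that did overlap SOX2 lay at an end of 136 of the 972.

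Hox genes, which set positional identity along the body axis, had the highest share among the gene groups compared that had at least 5 CHD7-marked genes, apart from the protocadherins described below. Of 39 Hox genes, 20 carried CHD7 at an end, and 17 of these had one without SOX2, or 85.0% against 14.4% of all CHD7-marked genes. Counted as peaks, 16 of 20 at Hox ends had no SOX2 (80.0%, interval 56.3 to 94.3). The total signal of a peak is the authors' coverage summed over its bases, on a scale that is compared here only within the CHD7 list. The 16 peaks had a median total of 594.35, close to the median of all members, 551.1. They lay 0.75 to 21.65 kb from the nearest SOX2 peak, with a median of 4.75 kb against 2.95 kb over all members. Of the 16, 12 were more than 2 kb away, as were 498 of all 863 members (57.7%). Among gene-end CHD7 peaks sorted by signal, the share without SOX2 was at most 30.2% in any decile. It was higher in other strata, at 44.4% for peaks of up to 500 bases and 54.0% for weak peaks at far ends, and 6 of 13 Hox peaks with a known end lay at far ends. The part of signal, width and position in the Hox share was not tested. Of the 17 genes 10 had no SOX2 peak at either end, and among the stronger 50% of CHD7 peaks 5 of 7 marked Hox genes were members.

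In the Hoxa cluster, Hoxa3 had a peak of 819.8 at 3.45 kb from the nearest SOX2 peak and Hoxa4 one of 769.7 at 1.55 kb. One peak of 619.4 lay at the start of Hoxa5 and the far end of Hoxa6, 2.1 kb from SOX2. Hoxa13 had a narrow peak of 500 bases at its start, with a total of 692.3 and 10.2 kb to SOX2. The 3 CHD7-marked Hox genes outside the members were all in this cluster: Hoxa2, Hoxa9 and Hoxa10. Hoxa10 shared only 50 bases with a SOX2 peak, which is 1 bin of the lists.

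In the Hoxd cluster 10 of 11 CHD7 peaks had no SOX2, and in the Hoxc cluster all 7 had none, against 5 of 10 in Hoxa and 5 of 7 in Hoxb. These counts include peaks away from gene ends, so the share to set beside them is the 34.6% over all CHD7 peaks. They cover only the span between the outer borders of each cluster's genes. The Hoxa13 peak lay beyond that border and is not counted in Hoxa. All 4 clusters rest on few peaks. Hoxd9 had the strongest Hoxd member, 942.7 at its far end, 17.1 kb from SOX2. The start of Hoxd13, the Hoxd gene printed above, had a peak of 587.5 at 8.25 kb, Hoxd12 one of 614.8 at 3.75 kb and Hoxd10 one of 473.6 at 0.95 kb. Hoxd3 had 601.2 and Hoxd11 446.3, both at the far end. In the Hoxc cluster, Hoxc12 had a peak of 501 at 21.65 kb, the widest distance among Hox members. Hoxc11, Hoxc9 and Hoxc8 had totals of 551.1, 469.1 and 432.7. The only Hoxb gene was Hoxb13, with 569.3 at 0.75 kb. CHD7 peaks were dense in all 4 clusters, at 4.02 to 11.3 per 100 kb against 1.24 over the chromosomes used. SOX2 peaks were dense in Hoxa, with 14.2 per 100 kb against 5.85, close to that level in Hoxb and Hoxd, with 6.32 and 5.16, and lower in Hoxc, with 2.59.

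**Figure D1:**
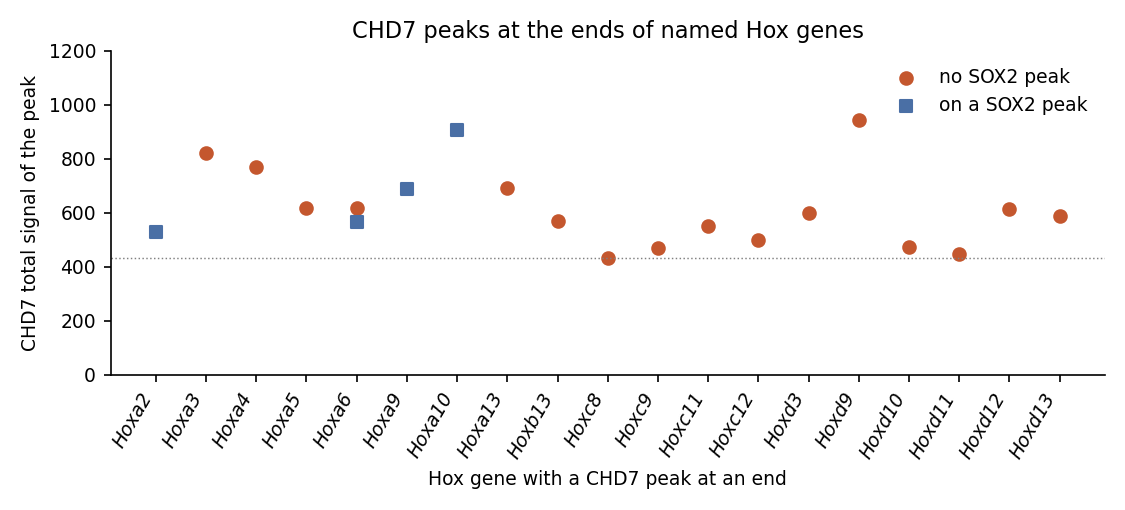
CHD7 peaks at the ends of Hox genes named in the text, with the total CHD7 signal of each peak (vertical axis, authors' units) for each gene drawn. Circles are peaks without SOX2, squares peaks with SOX2, and the dotted line is the list minimum of 433. The squares are all in the Hoxa cluster, and Hoxd9 reaches 942.7. Not every CHD7-marked Hox gene is drawn, so the highest point shown is not the highest of all Hox peaks.

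Homeobox genes outside the Hox clusters showed a share between Hox and the background. Of 140, 76 were marked by CHD7 at an end and 29 had one without SOX2, or 38.2% of the marked genes. These 29 genes had no SOX2 peak at either end in 14 cases. The families of transcription factors named here and in the next paragraph were grouped after the member genes had been seen, so their shares only describe the list. Dlx2, a branchial arch and forebrain regulator, had the strongest peak of the group, 2286.3 at its far end, only 0.15 kb from SOX2. Its neighbour Dlx1 had 938.2 at the far end. Msx2, a BMP target expressed in the otocyst, had a peak at each end, of 683.1 at the start and 910.9 at the far end, and no SOX2 at either. Nkx6-1, a ventral neural tube gene, also had both ends marked, with 929.1 at the start and 432.7 at the far end. Otx2, which patterns the ventral otocyst and anterior brain, had 733.2 at its start, 4.7 kb from SOX2. Cdx2, a trophectoderm and hindgut gene whose upstream sequence is printed above, had 592.1 and no SOX2 within the gene or 1 kb of it. Shox2, Pou6f1, En2, Six6, Lmx1b, Tlx3, Prox1 and Dlx3 were also in this group.

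Basic helix-loop-helix genes had a member at 9 of 26 CHD7-marked genes and forkhead genes at 6 of 19. No SOX2 peak lay at either end in 2 of the 9 and 2 of the 6. Hand2, a heart and limb factor, had a peak of 546.5 at the start and of 551.1 at the far end, 5.0 and 2.25 kb from SOX2. Hes7, the segmentation clock repressor, had a wide peak of 2850 bases and a total of 1211.4. It ended 50 bases from a SOX2 peak, as did the peak of 1011.1 at Id1, a BMP-induced inhibitor. The forkhead genes were Foxa1, Foxl2, Foxf1, Foxc2, Foxd4 and Foxb2, with totals of 473.6 to 619.4. Both CHD7-marked GATA genes, Gata6 with 824.3 and Gata4 with 437.2, were members, and neither had SOX2 at an end. Both marked EBF genes, Ebf1 and Ebf2, were members too, but each also had SOX2 at an end. With 2 marked genes each, the GATA and EBF shares rest on very few genes. Of 19 SOX genes, 13 carried CHD7 at an end and 0 had a peak without SOX2 (interval 0 to 24.7%), which does not set them apart from 14.4%. Over the 9 families without Hox, 53 of 154 marked genes were members (34.4%, interval 27.0 to 42.5). Among all genes outside these families and Hox, the share was 902 of 6560 (13.8%, interval 12.9 to 14.6). CHD7 peaks at far ends, which lacked SOX2 more often over all genes, were 24 of 71 homeobox peaks with a known end, against 354 of 4954 overall. The part of this position in the homeobox share was not tested.

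**Figure D2:**
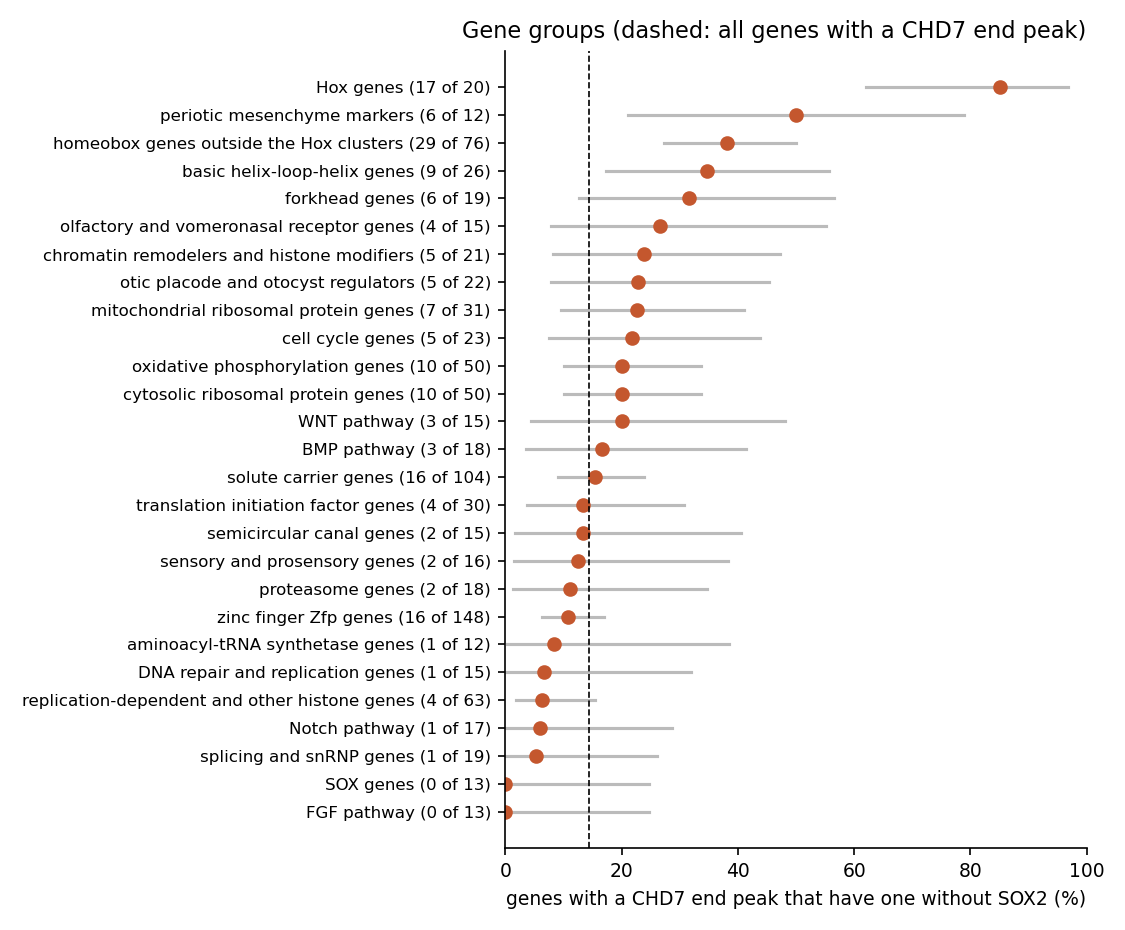
Share of CHD7-marked genes that had a peak without SOX2, in percent, for gene groups with at least 12 marked genes. Points are shares, bars exact 95% intervals, and the dashed line is the 14.4% of all CHD7-marked genes; Hox genes are at 85.0% and SOX and FGF genes at 0.

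Among ear development lists, 5 of 22 CHD7-marked otic regulators were members: Msx2, Id1, Otx2, Lmx1b and Dlx3. The prosensory genes Prox1 and Hes1, both at 605.7, were 2 of 16, and the neuroblast genes Shox2 and Tlx3 2 of 7. Among semicircular canal genes 2 of 15 were members. The exact intervals of all 4 shares cover 14.4%, the otic regulators running from 7.82 to 45.4%. Leaving out genes with SOX2 at an end, or the weaker 50% of CHD7 peaks, left 3 otic regulators and 0 prosensory genes. Of the 2 semicircular canal members, 1 was Axin2, a feedback inhibitor and target of WNT signalling. It had peaks of 742.4 and 623.9 at its start and no SOX2 there. The other canal gene was Lrig1, a growth factor receptor inhibitor, with 564.7 at 0.1 kb from SOX2. Of the hearing loss and CHARGE list, 10 of 30 genes were marked by CHD7 and 0 were members (interval 0 to 30.8%), which also covers 14.4%.

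On the WNT pathway list 3 of 15 marked genes were members. These were Axin2 and a pair of transcription factors at the end of the pathway, Tcf7l2 with 710.5 and Lef1 with 605.7. On the BMP pathway list 3 of 18 were members, namely Msx2, Id1 and the inhibitory Smad7, whose peak of 1411.8 ended 0.15 kb from SOX2. The pathway lists are partial. The WNT cofactor Bcl9l with 587.5 and the BMP family ligand Gdf6 with 651.3 were members outside them. The Notch list had Hes1 alone of 17, and Hes7, a member described above, is not on that list. The SHH list had the ciliary regulator Kif7 of 7, and the retinoic acid list the carrier Crabp2 of 6. None of 13 marked genes on the FGF list was a member. With these small numbers, no pathway list stood clearly apart from 14.4%: the intervals in the plot of gene groups cover that line for WNT, BMP, Notch and FGF.

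Markers of tissues around the otocyst were also marked. Of 12 CHD7-marked periotic mesenchyme genes, 6 were members (interval 21.1 to 78.9%): Osr2 with 1179.6, Pdgfra with 979.2, Twist1 with 724.1, Tbx15 with 715.0, Foxc2 with 555.6 and Twist2 with 542.0. Pdgfra, the PDGF receptor of mesenchyme, had a peak 2600 bases wide at its start and no SOX2 at either end. Twist1, a mesenchymal factor printed above, was 0.2 kb from SOX2, and its paralog Twist2 was 6.75 kb away. Of 10 marked hindbrain genes 4 were members (interval 12.2 to 73.8%), among them Nkx6-1, En2 and Hoxa3. Of 5 marked neural crest genes 1 was a member. Marked surface ectoderm, blood, endothelial, muscle and liver genes numbered 3, 1, 1, 2 and 1, and 0 of them were members. The cells from which these peaks came were not tested, since the lists give no expression.

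Chromatin regulators had 5 members among 21 marked genes (23.8%, interval 8.22 to 47.2), a share not set apart from 14.4%. Suz12, a core subunit of Polycomb repressive complex 2, had the strongest, with 1384.5 at its start and 5.25 kb to SOX2. Crebbp, a histone acetyltransferase, had 851.7 and lay 19 kb from SOX2. Chd4, a remodeler of the same family as CHD7, had 678.6, Pbrm1, a subunit of a SWI/SNF complex, 510.1 and Kdm5c, an X-linked H3K4 demethylase, 487.3. By symbol, 5 of the 13 marked Kdm genes were members (interval 13.9 to 68.4%), and Kdm8, Kdm4d and Kdm5a led them.

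Genes for general cell functions had shares nearer to the background of 14.4% than those of Hox genes and of the other homeobox genes. As a group they were not clearly nearer to it than the ear development and pathway lists above. Of 50 marked cytosolic ribosomal protein genes 10 were members, among them Rpl36, Fau and Rps3 with totals of 619.4 to 692.3. The same count of 10 of 50 held for oxidative phosphorylation genes, led by Ndufb2 with 815.2, Ndufa10 with 783.3, Ndufb10 with 628.5 and Ndufb8 with 573.8. The interval of either share covers 14.4%. Mitochondrial ribosomal proteins had 7 of 31, with Mrpl49 marked at both ends. Translation initiation factors had 4 of 30 (Eif2b3, Eif3c, Eif3b and Eif1), the proteasome 2 of 18 (Psmb8 and Psmc3), and aminoacyl-tRNA synthetases 1 of 12 (Gars). Cell cycle genes had 5 of 23, with the inhibitor Cdkn1a at 628.5, the checkpoint kinase Bub1 at 601.2 and the cyclins Ccnb1 and Ccnb2 at 510.1 and 482.8. The DNA repair list had Rpa1 of 15 and the splicing list Ddx5 of 19. These short lists do not hold every gene of their category. Members outside them included the repair genes Rad54l with 728.7 and Rad51c with 573.8. The splicing genes Srrm1 and Prpf38a, both at 715.0, were also members outside them.

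CHD7 marked 63 of 71 histone genes, and 4 had a peak without SOX2 (6.35%, interval 1.76 to 15.5, which covers 14.4%). Of these, H2ac23, H2bc23 and H4c17 shared the same pair of peaks, with totals of 3379.3 and 1179.6, and the other was H2ac12. Solute carriers had 16 of 104 marked genes (15.4%, interval 9.06 to 23.8), with Slc25a44, Slc18a3 and Slc35a4 first. Zinc finger genes had 16 of 148 (10.8%, interval 6.31 to 17.0), with Zbtb22, Zfp516, Zfp82 and Zbtb44 first. Both intervals cover 14.4%. Tmem genes had 12 of 88 and Ccdc genes 10 of 51. Atp genes had 7 of 23 (Atp6v1a, Atp1b3 and Atp8b1 first) and Fam genes 10 of 61. Kif motor genes had 5 of 21, with Kif13a, Kif26b and Kif2c first. No interval was computed for the Tmem, Ccdc, Atp, Fam and Kif families, so their shares are not set against 14.4%. All 21 gamma protocadherin genes counted as members through 1 peak. It lay at the far end that their transcripts share, had a total of 942.7, was 0.4 kb from SOX2, and with Diaph1 and 3 predicted genes covered 25 genes. Without that peak the gene count was 947. Over all members, 759 peaks lay at 1 gene and 99 at 2, and 104 of 863 (12.1%) at 2 or more, against 19.3% of those with SOX2. No gene had more than 2 members, and 22 had 2, among them H2ac23, H2bc23, H4c17, Msx2 and Axin2.

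Members had weaker CHD7 signal than the gene-end peaks that overlapped SOX2. Their median total was 551.1 (interquartile range 482.8 to 678.6), against 787.9 (573.8 to 1152). They were also narrower, with a median of 1000 bases against 1150, and lower per base, at 0.5951 against 0.7321. Within the whole CHD7 list, 627 of the 863 (72.7%) were at or below the median total and 344 (39.9%) in the lowest 25%. The top 10% of the list held 11 members (1.27%) but 699 (13.5%) of the peaks with SOX2. From the weakest to the strongest decile of gene-end peaks, the share without SOX2 went from 30.2% to 1.49%. It went from 44.4% among peaks of up to 500 bases to 4.29% among those over 2000. The lists end at a minimum signal, 433 for CHD7, so weaker sites could not be seen. By chromosome the share ran from 9.05% on chromosome 16 to 20.9% on X, where it rested on 24 of 115 peaks.

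**Figure D3:**
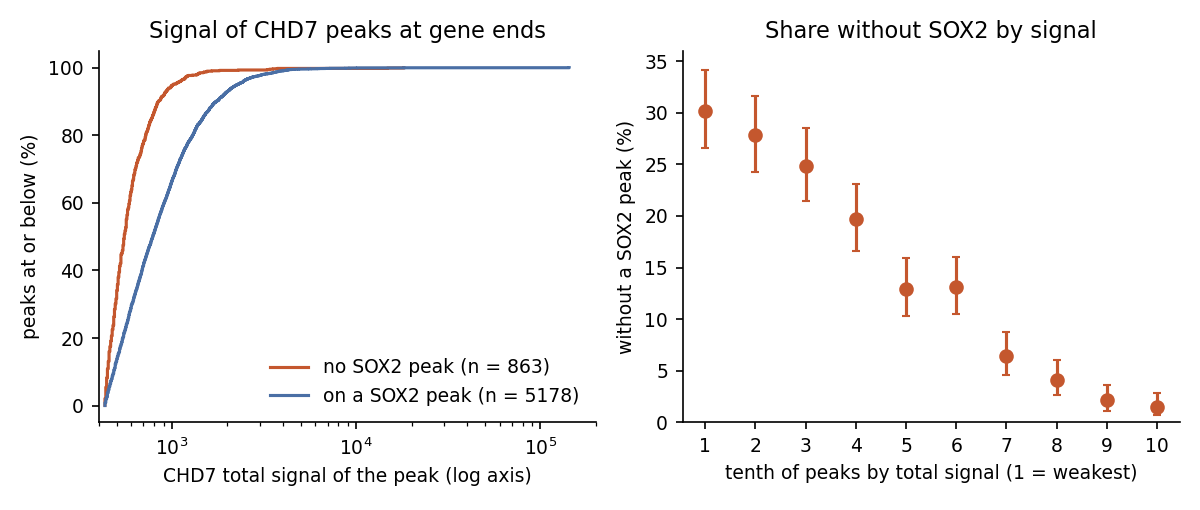
Cumulative share of gene-end peaks without and with SOX2 against total CHD7 signal (left, in percent, log axis), and the share without SOX2 in each decile of gene-end peaks by total signal (right, in percent with exact 95% intervals). The share goes from 30.2% in the weakest decile to 1.49% in the strongest.

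A few members were strong. The largest totals were 18167.2 at the start of Vmn2r2, a vomeronasal receptor gene, and 14806.1 at the start of Mfap2, which encodes a microfibril protein. Mfap2 also had the highest maximum of any member, 69.59, in a peak of only 600 bases, against a median maximum of 1.457, and Vmn2r2 had a maximum of 24.14. Both peaks stand far above the other members and were not checked against a list of regions prone to artefacts, so neither is read as a marked gene with confidence. Then came Paip1, a partner of poly(A)-binding protein, with 3725.4, the antigen processing pair Psmb8 and Tap2 with 3529.6, the histone peak above, and Ifi44l, an interferon-induced gene, with 3288.2. The far ends of Dlx2, Kdm8 and Ctdsp1 had 2286.3, 1812.6 and 1644.1. Isyna1, inositol phosphate synthase, had 1548.5 and the channel gene Pkd2l1 1493.8. Only 7 members were above 2000. Of 1459 olfactory and vomeronasal receptor genes 15 were CHD7-marked and 4 were members: Vmn2r2, Olfr1055, Olfr8 and Olfr520.

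The nearest SOX2 peak was a median of 2950 bases away (interquartile range 800 to 6875). SOX2 lay within 500 bases of 163 members (18.9%) and within 1 kb of 260 (30.1%), so many members were next to a SOX2 peak rather than far from one. Beyond 10 kb there were 138 (16.0%). Among the 12 that touched a SOX2 peak with no base between were Azin2, Gm31493 and Guk1, with totals of 651.3, 610.3 and 592.1. On the other side of the rule, 17 gene-end peaks shared just 50 bases with SOX2, the strongest being at Hoxa10, Socs1 and the pair Mesd and Tlnrd1, with 906.3, 833.4 and 683.1. The farthest members were at Hmgb3, a chromatin protein (59.3 kb), Ubr2, a ubiquitin ligase (58.35 kb), Stag2, a cohesin subunit (56.85 kb), B3galt2, a galactosyltransferase (52.3 kb), and Map3k9, a kinase (51.15 kb). Their totals were 455.4 to 801.6.

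**Figure D4:**
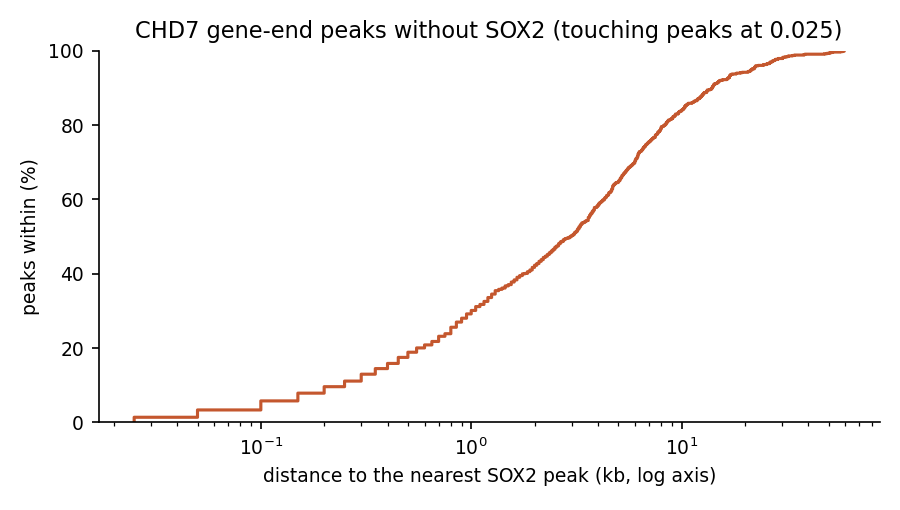
Cumulative share of the 863 members, in percent, within a given distance in kb of the nearest SOX2 peak, on a log axis, with the 12 touching peaks drawn at the left edge. The median is 2950 bases, and 30.1% lie within 1 kb.

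RefSeq start positions gave the direction of 749 of the 972 genes, so 678 members could be placed at the start or the far end. A peak near the start of any gene counted as at a start, even where it also lay at another gene's far end. Peaks at 2 or more genes were 12.1% of members and 19.3% of those with SOX2. The part of this rule in the shares below was not tested. At starts there were 538, or 79.4% (interval 76.1 to 82.3), against 95% of the peaks with SOX2 (94.3 to 95.6). Put the other way, 140 of 354 CHD7 peaks at far ends had no SOX2 (39.5%, interval 34.4 to 44.9), against 538 of 4600 at starts (11.7%, interval 10.8 to 12.7). The gap held in each band of signal: 54.0% against 22.7% for totals of 433 to 597, 35.5% against 11% up to 938, and 11% against 2.37% above. At far ends the members had a median total of 528.3 and at starts of 555.6. A RefSeq start lay inside 46.5% of members against 70.3% of peaks with SOX2. Where the highest point was within 1 kb of a start, its median position, negative before the start, was -28 bases in members (interquartile range -190 to 156), and -48 (-177 to 111) in the others.

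**Figure D5:**
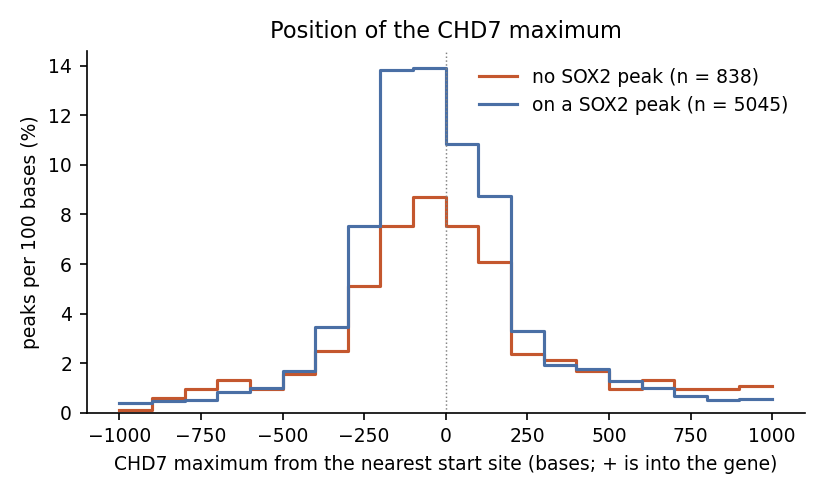
Distance of the highest point of CHD7 gene-end peaks from the nearest RefSeq start in bases (positive into the gene), as percent of peaks per 100 bases, for 838 members and 5045 peaks with SOX2. Both have their highest bins around the start, and 54.4% of members against 74.3% of the others lie within 1 kb.

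The promoters inside members, 300 bases from 250 before to 50 after a start, were rich in CpG much like those inside peaks with SOX2. There were 386 such promoters of 351 genes. Their median GC content was 62.7%, against 64.0% in 4029 promoters inside peaks with SOX2 and 56.7% in all 21045. CpG-rich promoters (GC over 50% and observed over expected CpG over 0.6) were 80.3%, 84.4% and 45.4%. ACAAT, on either strand, occurred in 17.6% of promoters without SOX2 (interval 13.9 to 21.8), 15.7% of those with SOX2 (14.6 to 16.9) and 27.1% of all. ACAAAG occurred in 11.7%, 10.7% and 16.8%. The intervals of the first 2 groups overlap for both sequences. CCAAT was in 39.1% without SOX2 (34.2 to 44.2), 46.0% with SOX2 (44.4 to 47.5) and 38.5% of all. GGGCGG was in 73.1%, 76.0% and 46.7%, CCGGAAG, an ETS site, in 15%, 19.3% and 11.7%, and TATAAA in 6.74%, 4.37% and 12.7%. Promoters of a gene overlap where its starts are close, so they are not independent.

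An end of a long noncoding RNA gene lay within 1 kb of 107 members (12.4%) against 13.7% of the peaks with SOX2. Transfer RNA genes were at 2 members (0.232%, interval 0.0281 to 0.835) against 0.753%, and microRNA genes at 6 (0.695%) against 1.08%.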

How the data were processed

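CUT&Tag peak lists for CHD7 and SOX2 were used, with 1 library per antibody. The authors deposited the total and the maximum coverage signal of each peak. The tools were Bowtie2, deepTools and SEACR, on build mm10, per the submitters' processing notes. Their versions and settings, the signal scaling and the use of the control library: not given in the sources used here. Depth is unknown. Peak borders follow bins of 50 bases; coordinates count from 1.

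Members had at least 1 base within 1 kb of an outer border of a protein-coding gene (RefSeq, GRCm38.p6) and 0 bases in common with SOX2. Strand came from RefSeq promoter entries, present for 17274 of 21631 coding genes. The members and the 37 gene lists were chosen with earlier results of these data known, and the 9 transcription factor families after the member genes were seen. Lists need not hold every gene of a category, so their counts refer to the listed genes only.

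Genes named were Chd7 and Sox2, the 12 strongest members, up to 4 per list and 3 per symbol family of at least 5 member genes, the 5 farthest, the 3 nearest, the 3 with least overlap, of which the text gives a subset, and the 5 genes with most members (22 tied at 2; the 5 with most signal were named). Others, among them all Hox, family and printed-sequence genes, were chosen after their values were seen. A few named items are not reported here. Intervals are exact binomial (Clopper-Pearson) at 95%. No test was run. On simulated data, 500 of 500 peaks planted at gene ends and 0 of 500 planted elsewhere were found. Alternatives changed the window, the overlap rule and the peak strength. Scripts ran in Python 3.11.15 with pandas 2.3.3, numpy 2.4.6, matplotlib 3.10.9 and, for intervals, scipy 1.17.1.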

Additional observations from a re-analysis of the deposited data

How the results depend on the processing

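The 863 peaks, 14.3% of gene-end CHD7 peaks, at 972 genes depended on the rules used. With a window of 500 bases the share was 12.8% and the share at starts 83.2%; with 2 kb the share was 17.0%. Requiring no SOX2 within 500 bases gave 11.6%, and within 2 kb it gave 498 peaks, 550 genes and 8.24%. Counting a SOX2 overlap under 50% of the CHD7 peak as none gave 1662 peaks, 1883 genes and 27.5%. The stronger 50% of SOX2 peaks gave 20.8%, and the stronger 50% of CHD7 peaks 241 peaks, 292 genes and 6.71%. The share at starts in that stronger set was 81.6%. Hox genes with a peak without SOX2 were 13 to 19 of 16 to 23 CHD7-marked ones under the other rules, and 5 of 7 with the stronger CHD7 peaks. Counts of gene lists fell by more than 1.5 times in 21 of the 28 lists with a member when genes with any SOX2 at an end were left out (Hox 17 to 10, all genes 972 to 505) and in 18 with the stronger CHD7 peaks (all genes 972 to 292). The cause was not tested.

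No paired analysis was possible because there was 1 library per antibody. Leaving out a library would leave no list to compare. The maxima came in steps of 0.0911, and the median member reached 16 steps, so weak peaks rest on few steps. The 2 lists end at different minimum signals, 433 and 733 on scales not known to be shared, and a missing SOX2 peak means only that none was listed. Genes without a RefSeq promoter entry (223 of 972) have no start or far end here.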
